A study of Mus musculus with 1086 samples.

Results

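The liver of NOD/ShiLtJ (NOD) mice was compared with the mean of 7 other inbred founder strains of the Diversity Outbred stock: 129S1/SvImJ (129S1), A/J (AJ), C57BL/6J (B6), NZO/HILtJ (NZO), CAST/EiJ (CAST), PWK/PhJ (PWK) and WSB/EiJ (WSB). Messenger RNA of whole liver from males was sequenced, 1 library per animal. The NOD libraries were chosen by strain label: 15 of the 128 founder libraries, 8 on chow and 7 on a high fat diet, were set against the other strains. Each other strain had 8 males per diet, except B6 on chow with 7. Animals were 26 weeks old, or 20 weeks for NZO, so the NZO part of the mean is also younger. Diets began at 4 weeks. Diet is described in the labels as 17% against 45% of kcal from fat, the latter with 34% sucrose by weight, and elsewhere in them as 6% against 22% fat by weight, so which pair was fed is not settled here. No transgene, knockout or drug is recorded for any group, and each library is a separate animal of an inbred strain.

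NOD is known for spontaneous autoimmune diabetes, in which T cells destroy the insulin-producing beta cells of the pancreas, more often in females than in males. Its risk lies partly in a rare MHC class II haplotype that lacks the E alpha chain, and it is also known to lack complement component C5 in serum. In the liver, hepatocytes make most complement and acute phase proteins, and their glucose, lipid, bile acid and drug metabolism follows insulin, sex hormones and the circadian clock.

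Levels are given in count equivalents, the authors' normalized signal multiplied by 114.899, the mean number of reads that 1 unit of signal is worth. Differences are on the log2(count equivalents + 1) scale, NOD minus the mean of the 7 strains, with the SE of a limma fit of strain by diet groups, averaged over both diets. This scale understates differences of genes near 0. Recovered totals were 7.13 to 11.3 M reads in NOD and 5.87 to 14.1 M in the others, and each of the 8 lanes carried 2 libraries of every strain. Of 128 libraries, 2 had profiles closest to another strain and were left out. The library labelled NOD 8264 correlated with the B6 mean at 0.9765 and with the NOD mean at 0.9458. The library labelled B6 8438 correlated with NOD at 0.9802 and with B6 at 0.9422. All 9 hepatocyte markers found in the table passed the filter on low levels, and 5 were higher in NOD and 1 lower (median 0.34). Apoa1 and Ttr, of secreted transport proteins, were higher by 0.38 ± 0.08 and 0.34 ± 0.07, Tat, of tyrosine breakdown, was lower (-0.68 ± 0.21), and Alb, of albumin, did not pass (0.01 ± 0.11; adjusted p = 0.962). No pancreas or adipose marker reached the level needed for testing (0 of 10).

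NOD differed from the mean of the other strains at 6427 of 13636 genes tested, 47.1% (limma, Benjamini-Hochberg adjusted p below 0.05). Of these, 3041 (22.3%) were higher and 3386 (24.8%) lower in NOD. Most differences were small, with a median absolute log2 difference of 0.195. A called difference of over 2-fold was found at 1017 genes (7.46%), 445 higher (3.26%) and 572 lower (4.19%). At 505 genes (3.70%) NOD differed from each of the 7 strains in the same direction, 241 above (1.77%) and 264 below (1.94%). The same count was 303 to 341 for the other 4 classical strains, and 2196, 1593 and 874 for the wild-derived CAST, PWK and WSB. In pairs of strains, NOD differed least from 129S1 (36.1% of genes) and most from CAST (59%). The shares against B6, AJ and NZO were 38.8, 39.1 and 39.4%, those against WSB and PWK at 49.2 and 54.3%. The share of genes called was 36.6% on chow alone and 29.9% on high fat alone, and 2945 genes were called in both diets with the same sign. Some results below are also given against the 4 other classical strains (129S1, AJ, B6 and NZO), where 18.9% of all genes were higher and 22.5% lower in NOD, and against the 3 wild-derived strains, where the shares were 27.8 and 28.8%.

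**Figure D1:**
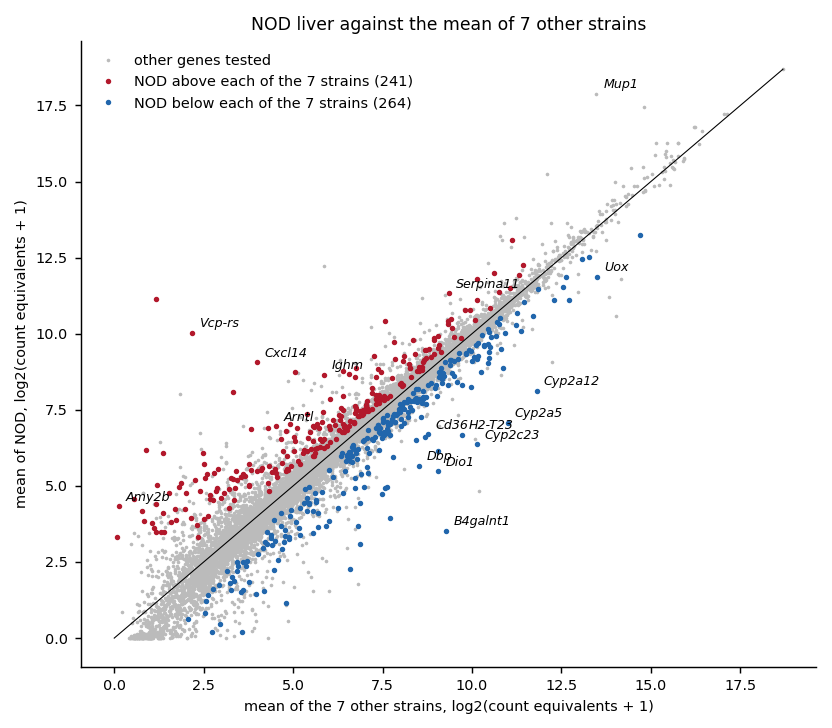
Mean level in NOD (vertical axis) against the mean of the 7 other strains (horizontal axis), both in log2(count equivalents + 1), 1 point per gene tested. Red points are the 241 genes at which NOD exceeded each other strain and blue points the 264 at which it lay below each; the line marks equal levels.

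At 19 genes (0.139% of those tested) no NOD library overlapped any library of the others, 7 of them lower in NOD (0.0513%) and 12 higher (0.088%). B4galnt1, which encodes the GalNAc transferase that makes complex gangliosides, had the largest named decrease. Its level was 6.09 to 17.0 count equivalents in NOD (median 10.1) against 401.4 to 1049 in the others (median 614.3), a 53.8-fold difference (log2 -5.75 ± 0.07; adjusted p = 1.54e-99). Both NOD diet groups showed it, by -5.91 ± 0.10 on chow and -5.59 ± 0.10 on high fat. The neighbouring gene Slc26a10 was also below all 7 strains, by -1.99 ± 0.17.

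The Cyp2a cluster on chromosome 7, which encodes cytochromes that hydroxylate steroids and nicotine-like compounds, was low as a block in NOD. Cyp2a12 was at 169.3 to 665.3 (median 275.9) in NOD and at 2402 to 5347 (median 3502) elsewhere, with no overlap, 12.7-fold lower (-3.67 ± 0.07; adjusted p = 2.6e-78). Cyp2a22 was at 0 to 17.2 in NOD and at 20.1 to 630.1 elsewhere, again without overlap (-4.31 ± 0.18). Cyp2a5 was at 28.3 to 437.6 (median 135.7) against 114.9 to 11359 (median 2393), and 6 other libraries fell inside the NOD range (-3.91 ± 0.27). Cyp2a4 was near 0 in NOD (median 2.11, highest 8.43), but WSB was nearly as low, with a median of 3.67, so it was not below all 7 (-4.45 ± 0.36). Cyp2a5, Cyp2a22 and Cyp2a12 are adjacent among the tested genes in RefSeq order (GRCm38.p6), and Cyp2a4 and Cyp2a5 are close copies between which reads can be divided wrongly.

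Uox encodes urate oxidase, which degrades uric acid in the liver. It was at 2859 to 4762 in NOD (median 3708) and at 6093 to 18664 (median 12002) in the others, 3.05-fold lower (-1.61 ± 0.08; adjusted p = 2.78e-39) and with no overlap. Nmrk1, the nicotinamide riboside kinase of NAD synthesis, was at 20.6 to 47.5 against 64.4 to 512.6 (-2.64 ± 0.13). Rmnd1, needed for mitochondrial translation, was at 33.09 to 88.98 against 112.9 to 351.2 (-1.84 ± 0.07). Desi1, a deSUMOylating enzyme, completed the 7 genes, at 115.2 to 190.8 against 204.3 to 427.8 (-0.94 ± 0.05).

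Among the genes high in NOD alone, Serpina11, a serpin of the cluster that holds alpha-1 antitrypsin, was at 2312 to 3100 in the 15 NOD libraries (median 2596) and at 153.8 to 2180 in the others, with 129S1 the next strain at a median of 1687 (3.93-fold, 1.97 ± 0.08; adjusted p = 1.81e-44). Mamdc2, a secreted matrix protein, was at 59.6 to 229.8 against 4.85 to 51.5 (2.6 ± 0.14). Rpp40, a subunit of ribonuclease P, was at 77.2 to 176.7 against 12.4 to 72.3 (1.8 ± 0.11). Psmc3ip, a cofactor of recombination, was at 43.7 to 65.9 against 0 to 14.1 (3.21 ± 0.23). For Tuft1 the gap was narrow, with the lowest NOD library at 182.4 and the highest other library at 181.7 (1.82 ± 0.12).

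Others of the 12 were low-level or of uncertain origin. Amy2b, a pancreatic-type amylase, was at 10.9 to 30.6 in NOD and at most 4.49 elsewhere, with a median of 0. Psg29, Cldn34c1, Bglap3 and the histone gene Hist1h2al were likewise above every other library. The gene ENSMUSG00000083840, which has no symbol in the annotation used, was at 1591 to 3165 in NOD and at most 51.5 elsewhere. Vcp-rs is a copy of Vcp, the gene of a segregase of misfolded proteins, and reads of the pair can be exchanged. In NOD it was at 897.7 to 1217 against at most 388.9, while Vcp itself was at a median of 2129 against 2809. The sum of both was at 2774 to 3530 in NOD and at 1917 to 3968 elsewhere, so the sum overlapped where the copy did not.

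**Figure D2:**
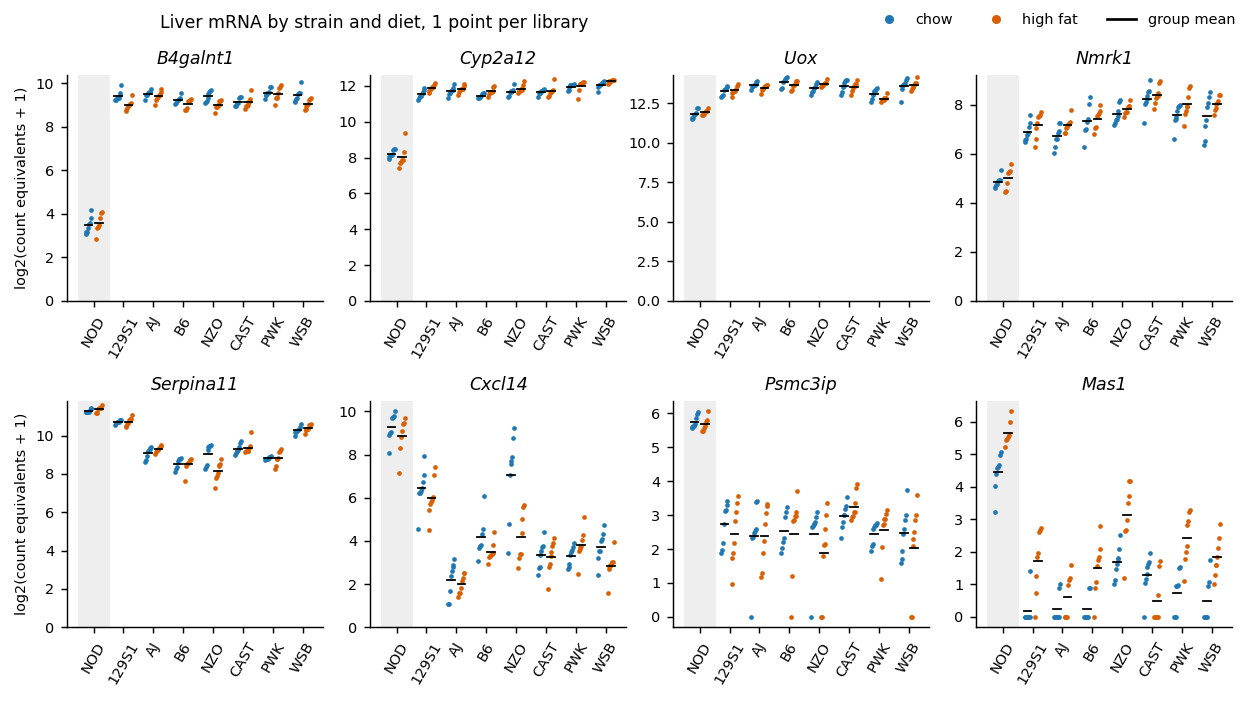
Level in log2(count equivalents + 1) for 8 genes by strain, 1 point per library, blue for chow and orange for high fat, with black bars for group means and NOD shaded. B4galnt1, Cyp2a12, Uox and Nmrk1 lie below and Serpina11 and Psmc3ip above every other library, while Cxcl14 and Mas1 overlap in 7 and 6 other libraries.

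Other large increases were shared by a few libraries of other strains. Cxcl14, a chemokine that acts on immune and fat cells, was at 138.7 to 1053 in NOD (median 552.3) against a median of 10.7 elsewhere (5.08 ± 0.24, 33.9-fold), and 129S1 came next with a median of 73.3. The 7 overlapping libraries reached 590.9. Mas1, a receptor for an angiotensin fragment, was at 8.28 to 79.1 against a median of 1.15 (3.86 ± 0.19). Corin, the protease that activates natriuretic peptide, was 12.2-fold higher (3.61 ± 0.22), with WSB the nearest strain, and 11 other libraries inside the NOD range of 30.8 to 96.7. Camk2b, a calcium-dependent kinase, was 27.7-fold higher (4.79 ± 0.20), with PWK nearest at 179.4 against 271.8. Gstm3, a glutathione transferase, was at 241.5 to 676.2 in NOD against a median of 98.6 (3.69 ± 0.24). Trim6 and Cspg5 were also above all 7 strains, by 2.64 ± 0.23 and 3.25 ± 0.22.

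Several large increases were shared with 129S1. Mup1, a major urinary protein gene, was at 153077 to 333202 in NOD, and the 129S1 median was 303780 against 1296 in CAST. Obp2a, of the odorant-binding lipocalins, was at a median of 73.2 in NOD and 438.0 in 129S1. Igsf23 was at 72.1 in NOD and 147.7 in 129S1. Rpl34-ps1, a processed copy of a ribosomal protein gene, was at 199.8 to 316.3 in NOD and at a median of 251.2 in 129S1. Summed with Rpl34, it was at 569.3 to 799.7 in NOD and at 457.6 to 1343 in the others.

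Large decreases were likewise shared by a few libraries. Dio1, the liver deiodinase that activates thyroid hormone, was at 6.33 to 153.5 (median 42.7) against a median of 661.2, 12.0-fold lower (-3.58 ± 0.19; adjusted p = 8.57e-35). PWK, the next strain, had a median of 120.4, and 9 other libraries fell inside the NOD range. Crym, which binds thyroid hormone in the cytosol, was at most 3.83 in NOD against a median of 41.6 (-3.65 ± 0.16). B6 was nearly as low, with a median of 4.38, and 11 other libraries fell inside the NOD range. Pctp, the phosphatidylcholine transfer protein, was at 6.21 to 30.5 against a median of 193.0 (-3.76 ± 0.16), with 1 other libraries inside. Cyp2c23, a fatty acid epoxygenase, was at 50.96 to 114.9 against 1889 (-3.77 ± 0.10), with NZO next at a median of 153.5. Mmd2 and the aldo-keto reductase Akr1e1 lay below all 7 strains too, by -3.78 ± 0.17 and -3.14 ± 0.15. Moxd1 was lower than the mean of 7 (-3.56 ± 0.42), where CAST stood at a median of 7130, and its difference from the 4 classical strains was -0.41 with adjusted p = 0.483. Pnp2, a purine nucleoside phosphorylase copy, was at 0 in all but 1 of the 8 NOD chow libraries and had a median of 0 over all 15, as in PWK.

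A rule of at most 3 count equivalents in every NOD library and a median strain level of at least 20 elsewhere found 4 genes. H2-Ea-ps, the E alpha gene of MHC class II under its name in the annotation used, was at 0 to 1.24 in NOD. It was also at a median of 0 in 129S1, B6 and PWK, and at 108.4, 138.3, 100.5 and 52.4 in AJ, NZO, CAST and WSB. Cfhr3, a factor H-related complement gene, was at 0 to 2.10 in NOD and at 22.5 to 38.3 in 129S1, AJ, B6, NZO and PWK, with CAST and WSB low at 3.66 and 1.11. The other 2 genes, Gm4956 and ENSMUSG00000089637, were each low in some further strains as well.

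Genes at which NOD was beyond all 7 strains were placed in RefSeq gene order. Of 479 placed, 58 (12.1%) had a tested neighbour that was also beyond all 7, against 7.33% of all 12785 genes placed. The longest runs held 3 genes: the Cyp2a genes named above, and Ppdpf, Ptk6 and Srms on chromosome 2, all above (0.67 ± 0.08, 2.04 ± 0.31 and 2.43 ± 0.24). Among pairs, H2-T23 and H2-T22 of the MHC on chromosome 17 were both below. Sequence variants were not examined.

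Of 16 tested class I and antigen processing genes, 4 were higher and 6 lower, with a median of -0.10 against -0.01 over all genes. Against the 4 classical strains 1 was higher and 10 lower, and against the 3 wild-derived strains 7 were higher and 4 lower. H2-T23, which encodes the Qa-1 molecule that presents leader peptides to NK and T cells, was at 68.5 to 162.4 in NOD against a median of 1014. It was 8.20-fold lower (-3.04 ± 0.07; adjusted p = 3.12e-68), with AJ next at a median of 205.8. H2-T22, a ligand of gamma delta T cells, was at 73.5 to 116.6 against 430.0 (-1.90 ± 0.09), with CAST near at 104.3. H2-K1 was 2.86-fold lower (-1.52 ± 0.07) and PWK lower still, at a median of 926.4 against 1117 in NOD. H2-D1 was higher than the mean of 7 (0.56 ± 0.07) but not than the 4 classical strains (-0.07; adjusted p = 0.434), and H2-Q7 was higher by 0.66 ± 0.12. MHC genes vary in sequence between strains, so reads can be lost or divided between family members.

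Of 9 tested MHC class II genes, 8 were lower in NOD and none higher (median -0.75). Cd74, the invariant chain, was at 108.8 to 456.7 (median 257.6) against a median of 519.0, 2.04-fold lower (-1.03 ± 0.18; adjusted p = 6.06e-07). H2-Ab1 and H2-Aa, the A beta and A alpha chains, were lower by about the same amount (-1.02 ± 0.19 and -1.03 ± 0.20). H2-DMb1, which loads peptides, and Ciita, the class II transactivator, were lower by -0.99 ± 0.22 and -0.66 ± 0.24. The ranges overlapped: 46 other libraries lay inside the NOD range of Cd74, and WSB had a median of 245.3. H2-Eb1, the E beta chain, did not pass (0.32 ± 0.23; adjusted p = 0.266), and WSB had a median of only 1.10. Against the 4 classical strains it differed by -1.33, and all 9 genes were lower. Against the 3 wild-derived strains it was higher by 2.51, and 5 of 9 genes were lower.

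Interferon-stimulated genes were lower in NOD at 16 of 27 tested and higher at 1 (median -0.45). Gbp3, a guanylate-binding protein, was at 6.99 to 30.9 against a median of 56.6 (-1.53 ± 0.21). Ifi44, Oas1a and Oas2 were lower by -1.49 ± 0.21, -1.11 ± 0.16 and -1.03 ± 0.15, and the antiviral GTPase Mx1 by -1.22 ± 0.24. CAST had lower medians than NOD for Ifi44, Oas1a and Oas2. For Mx1 the 129S1 median of 4.20 was below the 6.41 of NOD, while NZO stood high at 119.8. For Gbp3 the WSB median was 14.6 against 18.4 in NOD. Iigp1, an immunity-related GTPase, was higher than the mean (0.93 ± 0.31), where CAST stood at a median of 22.5 against 3435 in NOD. Against the 4 classical strains, 22 of the 27 were lower and 2 higher. Against the 3 wild-derived strains 9 were lower and 3 higher, and with the state of the circadian clock as a covariate, described with the clock genes, 10 were lower and 1 higher. Of the Ifi200 family, 3 of 7 were lower and 1 higher.

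Of 25 candidate genes of diabetes loci, 16 were expressed enough to test, of which 7 were lower in NOD and 2 higher (median -0.26). Against the 3 wild-derived strains 5 were lower and 4 higher. Ifih1, the RNA sensor MDA5, was at 153.2 to 307.7 against a median of 340.4 (-0.61 ± 0.08; adjusted p = 1.15e-10). Sirpa, which inhibits phagocytosis, and Slc11a1, a metal transporter of phagosomes, were lower by -0.64 ± 0.11 and -0.59 ± 0.11. Bcl2, Il2ra, Pik3cd and Cd274 were lower by -0.63 ± 0.14, -0.87 ± 0.24, -0.47 ± 0.13 and -0.67 ± 0.19. For Il2ra the NOD median was only 2.63 and PWK stood out high at 28.9. WSB had lower medians than NOD for Sirpa, Slc11a1 and Pik3cd, as did CAST for Cd274 and 129S1 for Il2ra. B2m and Fcgr2b were slightly higher (0.23 ± 0.05 and 0.23 ± 0.07). Ptpn22 (-0.42 ± 0.19), Clec16a (-0.09 ± 0.04), Ptpn2 (-0.04 ± 0.14), Cd93 (0.03 ± 0.16), Acadl (0.05 ± 0.06), Fcgr1 (0.38 ± 0.19) and Vav3 (0.39 ± 0.20) did not pass.

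**Figure D3:**
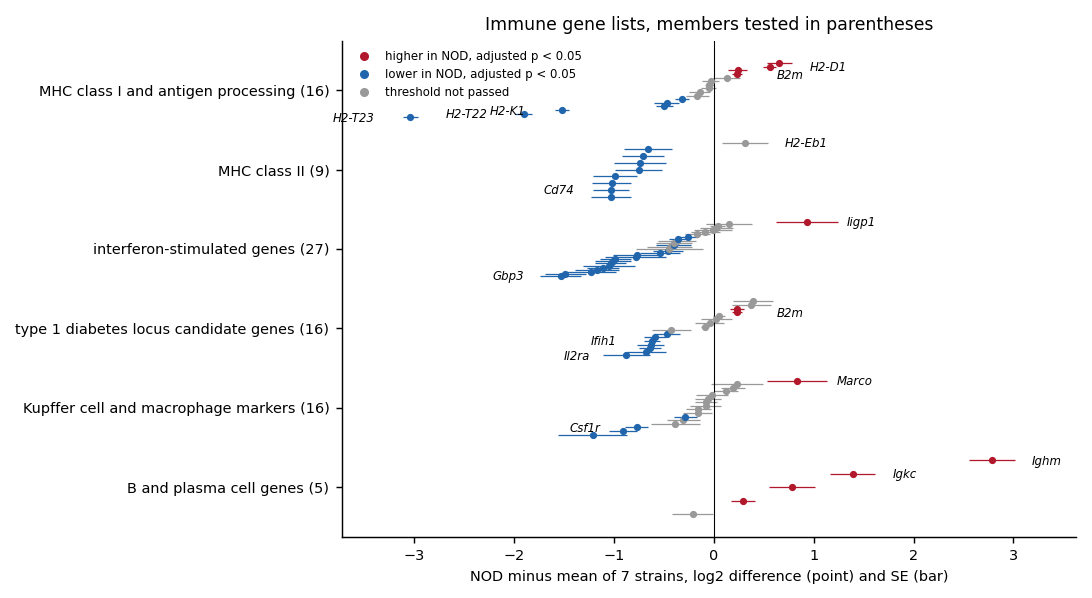
Log2 difference of NOD from the mean of the 7 strains (points) with its SE (bars) for the tested members of 6 immune lists, red or blue where higher or lower at adjusted p below 0.05. MHC class II and interferon-stimulated genes lie mostly to the left of 0, with 8 of 9 and 16 of 27 called lower, and Ighm lies farthest right.

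Markers of immune cells moved in different directions. In whole liver, fewer cells of a type and less RNA per cell cannot be told apart. Of 16 Kupffer cell and macrophage markers, 4 were lower and 1 higher, 31.25% called against 47.1% of all genes tested. Csf1r, the receptor for the macrophage growth factor, was lower by -0.77 ± 0.11, Lyz2 by -0.91 ± 0.14 and Gpnmb by -1.21 ± 0.34. Marco was higher (0.83 ± 0.30). PWK had a lower Lyz2 median than NOD, at 105.3 against 174.9. Gpnmb was near 0, at a median of 0.96 in NOD against 2.92 elsewhere. The direction of the list turned with the strains compared. Against the 4 classical strains 8 of the 16 markers were lower and 1 higher. Against the 3 wild-derived strains 1 marker was lower and 6 markers were higher. Their summed level was 3181 to 5335 in NOD and 1548 to 10921 elsewhere, so the groups overlapped, and the part of macrophage content in the class II result was not tested. Of 5 B and plasma cell genes tested, 4 were higher. Ighm, the mu heavy chain, was at 147.5 to 1226 in NOD (median 423.0) against a median of 53.8, above all 7 strains (2.79 ± 0.23; adjusted p = 2.68e-20). Igkc and Jchain were higher by 1.39 ± 0.23 and 0.78 ± 0.23, below the AJ medians of 56.1 and 62.3. Of 5 neutrophil genes tested, 3 were higher, among them the calprotectin subunits S100a8 (1.06 ± 0.32) and S100a9 (1.12 ± 0.32). Only 1 of the 5 neutrophil genes was higher against the 4 classical strains, and 4 were higher against the 3 wild-derived strains. With the clock covariate 2 of the 5 B and plasma cell genes and 0 of the 5 neutrophil genes were called. Only 3 of 16 T and NK cell markers could be tested.

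Of 4 cholangiocyte markers tested, 2 were higher: Sox9 above all 7 strains (1.89 ± 0.20) and Spp1 by 1.02 ± 0.17. Of 9 endothelial markers, 4 were higher, 1 was lower and 4 did not pass (median 0.14). Lyve1, of sinusoids, was higher (1.03 ± 0.20), and Vwf, of larger vessels, was below all 7 (-0.66 ± 0.09). Of 14 cell division genes, 7 were lower and none higher (median -0.47), with Rrm2 of nucleotide reduction at -2.05 ± 0.20, and Mcm5 and Pcna of the replication fork at -1.04 ± 0.17 and -0.35 ± 0.05, both below all 7. With the clock covariate 10 of the 14 were lower.

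Of 24 complement genes, 5 were higher and 6 lower, 45.8% called, near the 47.1% of all genes tested. Against the 4 classical strains 9 were higher and 5 lower. Hc, which encodes C5, was at 1961 to 3810 in NOD (median 2489) against a median of 8765 (-1.60 ± 0.07; adjusted p = 3.92e-41). AJ, also known for C5 deficiency, was as low, at a median of 2645. C4a was higher by 1.75 ± 0.13, where WSB stood as high as NOD, and C9 by 0.73 ± 0.08. Of 21 acute phase genes, 7 were higher and 2 lower, 42.9% called. The pentraxin Apcs was 3.38-fold higher (1.76 ± 0.26), and the interleukin antagonist Il1rn was lower (-1.8 ± 0.38). Lcn2 was higher by 1.31 ± 0.52 (adjusted p = 0.0292). It was at 8884 to 12473 in 4 NOD libraries, animals 8234, 8249, 9000 and 8219, and at 942.7 to 3711 in the other 11. Without any 1 of these 4 libraries, Lcn2 no longer passed (1.11 to 1.22). Saa1 was also highest in those 4 libraries, at 34735 to 50986 against 14067 to 31068, and did not pass as a strain difference (0.27 ± 0.30; adjusted p = 0.481). With the clock covariate 2 of the 21 acute phase genes were higher and 2 lower.

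The circadian clock of hepatocytes runs on the activators Arntl, Clock and Npas2, which drive the Per and Cry repressors and the output factors Dbp and Tef, while Nr1d1 and Nr1d2 repress the activators. Of these, Arntl and Dbp peak at roughly opposite times of day. Of 18 clock genes, 5 were higher in NOD and 9 lower, with 2 above and 5 below all 7 strains. Arntl was at 22.8 to 284.2 in NOD (median 143.4) against a median of 19.6 (2.44 ± 0.30; adjusted p = 1.07e-11), and Npas2 at a median of 17.3 against a median of 1.07 (3.26 ± 0.37). Dbp was at 3.98 to 460.0 (median 82.5) against 497.3 (-2.86 ± 0.41), and Per3 at 3.90 to 158.3 (median 37.9) against 223.8 (-2.65 ± 0.27). Tef (-1.52 ± 0.15), Nr1d2 (-1.42 ± 0.14), Ciart (-1.83 ± 0.30), Per2 (-1.14 ± 0.19), Bhlhe41 (-1.65 ± 0.25) and the clock output Usp2 (-2.75 ± 0.29) were lower. Cry1 was higher (0.81 ± 0.19) and Nr1d1 did not pass (-0.69 ± 0.33; adjusted p = 0.0731).

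Short stretches before the start of clock genes were searched for the motifs that factors of this loop recognise. The E-box CACGTG is the site of Arntl with Clock or Npas2, and the D-box, searched as TTATGTAA or TTACGTAA, is the site of Dbp and Tef. These and a further motif, the ROR element core TAGGTCA, were searched on both strands in the 250 bases before the start in RefSeq, GRCm38.p6. Of the 18 clock genes and Usp2, 16 had such a stretch. Some genes have several starts, so these made 21 stretches. An E-box was in 6 of the 21, against 6.02% of 32851 stretches of all genes, and a D-box in 1, against 0.931%. By gene, Ciart, Tef, Cry1, Per1 and Bhlhe41 held an E-box and Per3 a D-box. The ROR element core was in the Nfil3 stretch alone, against 2.23% of stretches of all genes. No stretch of Arntl, Npas2, Dbp, Usp2 or Nr1d2, all changed in NOD, held any of these motifs. The 4 stretches shown were picked, with values known, from genes that hold a motif. The Ciart stretch (chr3:95882229-95882478, minus strand) has 3 E-boxes, the Tef stretch of its second listed start (chr15:81811164-81811413, plus strand) 1, the Cry1 stretch (chr10:85185055-85185304, minus strand) 1, and the Per3 stretch (chr4:151044666-151044915, minus strand) 2 D-boxes. They are written from 5′ to 3′ on the strand of the gene, the last base being next to the start, with the motifs in capitals. A match is a description of the letters and not a measured site.
Ciart: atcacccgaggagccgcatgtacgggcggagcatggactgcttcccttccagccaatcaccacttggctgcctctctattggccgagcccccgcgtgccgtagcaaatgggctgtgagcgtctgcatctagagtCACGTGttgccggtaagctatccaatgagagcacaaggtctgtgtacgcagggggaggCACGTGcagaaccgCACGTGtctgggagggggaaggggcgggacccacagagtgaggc
Tef: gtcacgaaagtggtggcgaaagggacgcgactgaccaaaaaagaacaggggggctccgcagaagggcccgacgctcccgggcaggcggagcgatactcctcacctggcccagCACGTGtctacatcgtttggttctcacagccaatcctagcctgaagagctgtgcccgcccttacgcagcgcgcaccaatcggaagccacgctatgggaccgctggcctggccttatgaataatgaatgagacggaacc
Cry1: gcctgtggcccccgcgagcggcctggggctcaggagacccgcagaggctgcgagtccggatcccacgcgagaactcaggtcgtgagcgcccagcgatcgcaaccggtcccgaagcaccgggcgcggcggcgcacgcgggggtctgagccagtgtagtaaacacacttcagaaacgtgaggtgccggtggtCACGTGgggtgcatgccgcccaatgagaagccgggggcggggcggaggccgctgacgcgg
Per3: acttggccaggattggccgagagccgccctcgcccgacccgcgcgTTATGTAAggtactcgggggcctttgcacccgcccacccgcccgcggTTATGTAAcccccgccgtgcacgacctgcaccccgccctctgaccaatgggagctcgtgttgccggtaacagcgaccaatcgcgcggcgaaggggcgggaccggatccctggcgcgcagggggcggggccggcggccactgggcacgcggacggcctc

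The NOD libraries themselves differed in these genes. In 6 of the 15 NOD libraries, animals 8727, 9000, 10176, 8219, 8955 and 8970, Dbp was at 3.98 to 15.8 and Arntl at 179.8 to 284.2. In NOD animals 8234, 8249 and 7196, Dbp was at 279.9 to 460.0 and Arntl at 22.8 to 44.3. Even so, 66 libraries of the other strains had less Arntl than any NOD library, and 58 had more Dbp. The log2 difference of Arntl and Dbp ran from -3.94 to 5.59 in NOD (median 0.71) and from -7.07 to 4.86 in the others (median -4.49). It was above 0 in 9 of 15 NOD libraries and in 8 libraries of the others, of which AJ, CAST and PWK had 2 each and B6 and NZO 1 each. No source used here gives the time of day of collection, so a strain difference in the clock and a difference in collection time cannot be told apart. With this log2 difference of each library as a covariate, an alternative chosen after seeing the data, 5797 genes (42.5%) differed, and 73.1% of the 6427 calls were kept in the same direction. B4galnt1 (-5.76), Cyp2a12 (-3.62), Cxcl14 (5.23), Uox (-1.40), Dio1 (-3.35) and H2-T23 (-2.90) stayed called, as did Npas2 (1.33) and Per3 (-0.75). Over the 18 clock genes, 2 were higher and 5 lower with the covariate, with a median of -0.12 against -0.43 without it. The covariate is built from Arntl and Dbp, so their own values under it say nothing about NOD. The counts and median of the 18 clock genes include both, and the other members belong to the same cycle. Their shift towards 0 is therefore partly built in, and no conclusion about NOD is drawn from it.

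**Figure D4:**
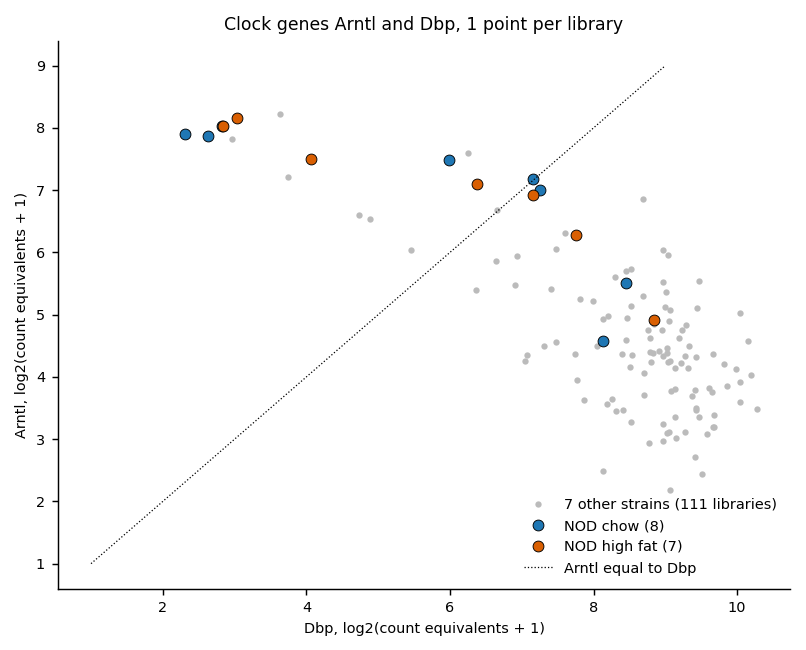
Arntl (vertical axis) against Dbp (horizontal axis) in log2(count equivalents + 1), 1 point per library, grey for the libraries of the other strains and blue or orange for the 8 chow and 7 high fat NOD libraries. Of the NOD libraries 9 of 15 lie above the dotted line of equal levels. Animals 7196, 8234 and 8249 lie farthest below it, at log2 differences of -3.94, -3.56 and -2.95, against a median of -4.49 in the other strains. None reaches the lowest Arntl and highest Dbp levels at the lower right.

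The 8 genes whose spread among NOD libraries most exceeded that within the other strains included 3 clock genes. The SD of log2 levels was 1.18 for Nr1d2 in NOD against a median of 0.218 over the other strains, a ratio of 5.42. It was 2.25 against 0.629 for Nr1d1 and 1.02 against 0.394 for Tef. Since the fit shares 1 spread per gene over all groups, the SE and adjusted p of such genes can be too small for NOD. Nr1d1 was at 6.54 and 8.80 in the high fat animals 8955 and 8970 and at 67.8 to 825.6 in the other 13. Ppard, a fatty acid-sensing nuclear receptor, was at 155.3 to 281.9 in animals 8727, 9000, 10176, 8955 and 8970 and at 44.8 to 73.9 in the other 10. These 5 are among the 6 animals with the lowest Dbp. Serpina1d, Ddhd1 and Tns2 had ratios of 2.77, 2.71 and 2.58. Rps27, a ribosomal protein gene, is listed at 0 in animal 9000 and was at 69 to 268.2 in the other 14 (ratio 3.15). Its lowest level in the other strains was 0.014, so a level near 0 was not confined to NOD.

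Of 24 bile acid genes tested, 11 were higher in NOD and 4 lower (median 0.17). Cyp7a1, the rate-limiting enzyme of bile acid synthesis, was at 5.52 to 260.4 (median 110.1) against a median of 629.1, 7.40-fold lower and below all 7 strains (-2.89 ± 0.47; adjusted p = 1.36e-07). With the clock covariate its difference was -1.13 and did not pass (adjusted p = 0.0746). Hsd3b7, a later enzyme of the same route, was above all 7 (0.62 ± 0.09), and Baat, which conjugates bile acids, was higher by 0.50 ± 0.07. The oxysterol hydroxylase Cyp39a1 was lower (-1.76 ± 0.21), though PWK had a median of 1.28 against 8.76 in NOD. The basolateral exporter Abcc3 was higher (1.41 ± 0.15) than the mean of 7 but not than the classical strains (-0.17; adjusted p = 0.411), since CAST had a median of 25.9 against 824.9 in NOD.

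Of 41 cytochrome P450 genes tested, 13 were higher and 15 lower. Genes of the Cyp2b, Cyp2c and Cyp3a groups, many of which respond to the nuclear receptors CAR and PXR, were found in both directions. Cyp2c23 (-3.77 ± 0.10) and Cyp2c40 (-2.14 ± 0.23) were lower, and several others were higher. Cyp3a11, the main bile acid and drug hydroxylase, was at 3319 to 34924 in NOD (median 10659) against a median of 2035 (2.73 ± 0.28, 6.63-fold). Cyp2b10 was at 10.2 to 108.3 against 3.32 (2.92 ± 0.38) and above all 7 strains, as was Cyp2c29 (1.94 ± 0.20). Cyp2b9 (3.28 ± 0.37) and Cyp3a59 (2.08 ± 0.20) were higher too, although AJ had a Cyp2b9 median of 644.1 against 91.2 in NOD. Cyp3a13 was at 314.0 to 809.5 against 2087 (-2.01 ± 0.08), and Por, the electron donor of these enzymes, was below all 7 (-1.11 ± 0.15). Alas1, the first enzyme of heme synthesis, was below all 7 strains (-1.28 ± 0.22). Of 45 conjugation enzymes, 17 were higher and 13 lower, and 16 and 17 against the 3 wild-derived strains. Gstm2 (2.00 ± 0.16) rose with Gstm3, Ugt3a1 was above all 7 (1.08 ± 0.08), and the quinone reductase Nqo1 was below all 7 (-1.65 ± 0.15). CAST had a higher Gstm2 median than NOD, at 746.6 against 590.3. Ugt3a2 was higher than the mean (1.03 ± 0.07) but lower than the 4 classical strains (-0.39; adjusted p = 1.14e-05). These families hold close copies, so values of single members are less certain than those of isolated genes.

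Genes of glucose handling gave 4 higher and 6 lower of 22 tested, 45.5% called, near the 47.1% of all genes tested. Fbp1, of gluconeogenesis, was at 2922 to 4565 in NOD against a median of 6294 (-0.77 ± 0.07; adjusted p = 1.66e-19), and Gys2, the liver glycogen synthase, at 534.5 to 990.6 against 1541 (-0.93 ± 0.13). Both were below all 7 strains. Pklr of glycolysis (0.70 ± 0.16) and Pygl of glycogen breakdown (0.35 ± 0.07) were higher.

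Fatty acid oxidation genes were lower at 17 of 29 tested and higher at 3 (median -0.19). Against the 4 classical strains 17 were lower and none higher, and against the 3 wild-derived strains 9 were lower and 8 higher. Ppara, the nuclear receptor that induces them, was lower by -0.66 ± 0.13 and Cpt1a, the gate of mitochondrial entry, by -0.56 ± 0.09. The omega-hydroxylases Cyp4a31, Cyp4a14 and Cyp4a10 were lower by -3.14 ± 0.35, -2.22 ± 0.50 and -2.09 ± 0.39. PWK had lower medians than NOD for Cyp4a14 and Cyp4a10, and Cyp4a14 was higher in NOD than in the 3 wild-derived strains (1.37; adjusted p = 0.0225). Acadvl was higher (0.46 ± 0.05) than the mean, where CAST stood low at a median of 433.9 against 3083. Cd36, which takes up fatty acids, was at 74.9 to 163.3 in NOD against a median of 323.4, 4.21-fold lower and below all 7 (-2.07 ± 0.15). Of the other libraries 110 lay above the NOD range and 1 below it.

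Of 24 genes of fatty acid and triglyceride synthesis, 9 were higher and 5 lower. The elongases Elovl3 (2.03 ± 0.27) and Elovl5 (0.70 ± 0.12) rose, and with the clock covariate Elovl3 was at 1.13. Against the 4 classical strains the list had 3 higher and 5 lower. Among lipoprotein genes (10 of 26 higher, 6 lower) the HDL receptor Scarb1 (0.62 ± 0.06) and the sterol exporter Abcg5 (0.93 ± 0.13, above all 7) were higher. Of 18 lipid droplet genes, 2 were higher and 7 lower, among the latter Fitm2, a droplet-forming protein (-0.42 ± 0.11), and Hsd17b13, a droplet enzyme (-0.34 ± 0.07). Fitm1, of the same family as Fitm2, was higher (2.27 ± 0.16), though B6 had a median of 155.2 against 92.8 in NOD. Against the 3 wild-derived strains 5 of the list were higher and 3 lower. Of 27 amino acid enzymes, 6 were higher and 11 lower. Ahcy, which clears S-adenosylhomocysteine, was at 1710 to 2917 in NOD against 5753 (-1.59 ± 0.10), and Oat, the ornithine aminotransferase, was lower by -1.19 ± 0.14, both below all 7. Asns was lower by -2.24 ± 0.25. Among iron genes 6 of 18 were higher and 2 lower, 44.4% called against 47.1% of all genes tested. Hamp, the iron hormone hepcidin, was higher by 1.88 ± 0.46 and Id1, a target of the same BMP signal, by 0.88 ± 0.17. With the clock covariate both missed the threshold (Hamp 1.26 with adjusted p = 0.064, Id1 0.40 with adjusted p = 0.105).

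**Figure D5:**
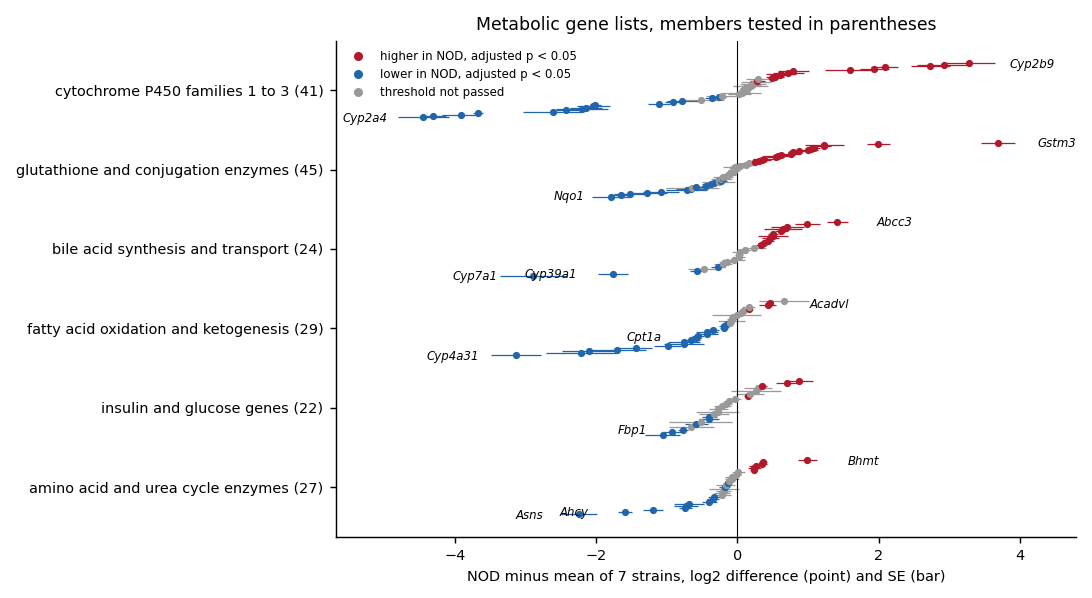
Log2 difference of NOD from the mean of the 7 strains (points) with its SE (bars) for the tested members of 6 metabolic lists, coloured by the test. Fatty acid oxidation genes lie mostly left of 0 (17 of 29 called lower), and the P450 list has 13 called on the right and 15 on the left.

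Some genes differ between the sexes in mouse liver, and all animals here were males. Of 24 male-biased genes, 11 were higher and 6 lower. Selenbp2 was higher by 2.56 ± 0.28, though WSB had a median of 20217 against 13717 in NOD. Serpina1e was lower by -2.36 ± 0.25, at 3026 to 4515 in NOD against a median of 25597. Strain medians of Serpina1e ran from 2215 in 129S1, below NOD, to 97385 in CAST. Of the male-biased genes, 17 were higher and 1 lower against the 4 classical strains, and against the 3 wild-derived strains 6 higher and 12 lower. Of 24 female-biased genes, 13 were lower and 4 higher (median -0.90, from -4.45 to 3.28). Among the lower were Cyp2a4, Fmo2 (-2.04 ± 0.21) and Cyp2c40 (-2.14 ± 0.23). In 129S1 the medians of Fmo2 and Cyp2c40 were near those of NOD, at 42.0 against 36.8 and 17.8 against 18.1. CAST had a Cyp2c40 median of 2293. Against the 4 classical strains 2 of the female-biased genes were higher and 13 lower, and against the 3 wild-derived strains 7 were higher and 11 lower. Major urinary protein genes gave 9 higher and 6 lower of 17, from -3.46 for Mup19 to 4.42 for Mup1. The count was 11 higher and 2 lower against the 4 classical strains, and 6 and 8 against the 3 wild-derived strains. These copies are so alike that reads can be assigned to the wrong one. Of 22 serpins, 13 were higher and 6 lower. Within the alpha-1 antitrypsin copies Serpina1c was higher (1.11 ± 0.08) and Serpina1d below all 7 strains (-1.48 ± 0.09), with the same uncertainty. Serpina3h was higher by 3.21 ± 0.25, though WSB had a median of 90.2 against 79.8 in NOD.

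The NOD difference itself depended on diet at 7 genes (0.0513%), with 1112 at an unadjusted p below 0.05. Rab27a, which docks secretory vesicles, was at 18.3 to 43.1 in NOD on chow and at 58.6 to 109.2 on high fat, without overlap. Its difference from the other strains was 0.36 ± 0.17 on chow and 1.79 ± 0.18 on high fat (interaction 1.44 ± 0.24; adjusted p = 2.73e-04). Celf2, an RNA-binding splicing factor, was 24.4 to 50.3 on chow and 83.5 to 102.1 on high fat, and its NOD deficit shrank from -1.33 ± 0.11 to -0.43 ± 0.11. The chemokine Ccl9 went the other way, from 151.9 to 226.7 on chow down to 31.4 to 83.8 on high fat, and its deficit grew from -1.44 ± 0.16 to -2.68 ± 0.17. Pglyrp2, which digests bacterial peptidoglycan, had a deficit of -0.27 ± 0.07 on chow and -0.78 ± 0.08 on high fat. Bhlhe40, a clock-linked repressor, was lower in NOD on chow (-0.40 ± 0.14) and higher on high fat (0.49 ± 0.14). The remaining genes were the low-level Psg29 and Mrap2. Mrap2, a melanocortin receptor accessory protein, was at 1.81 to 9.74 in NOD on chow and at 8.43 to 46.5 on high fat (interaction 2.15 ± 0.27), and falls outside the level set for named genes. It is named because it is 1 of 7.

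Genes known to mark other founder strains were also measured in NOD. Nnt, which carries a known deletion in B6, was at 703.9 to 893.9 in NOD against a B6 median of 392.8, and its difference from the mean of 7 did not pass (0.09 ± 0.05; adjusted p = 0.192). Glo1, a gene duplicated in AJ, was at 1702 to 2500 in NOD against 6154 in AJ.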

How the data were processed

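Founder liver mRNA gave single-end reads of 100 bases, per the labels' protocols. Per the submitters' processing notes, the tools were CASAVA 1.8.0, Bowtie 0.12.8 and RSEM 1.2.1, with build NCBIM37. The deposited founder table, aligned to strain genomes per its name, holds a signal that the authors scaled so that each library's upper quartile is 1. It is not divided by gene length. Steps of the low signal values gave whole reads for 83.1% of them (81.0 to 85.0% per library, tolerance 0.1), so no count test was run, and totals are approximate. Count equivalents with a pseudocount of 1 were log2-transformed and fitted with limma 3.58.1 (R 4.3.3, intensity-trended variance) as 16 strain by diet groups, over the libraries kept and 24965 genes, of which 13636 reached 10 count equivalents in at least 7 libraries. P-values were Benjamini-Hochberg adjusted over all genes tested, with a threshold of 0.05. The scripts were tested on simulated data. "Beyond all 7" means called against each strain, on the same side. The members, the 40 gene lists and the tests were chosen with earlier results of these data known. Named genes were those of the largest differences and gaps, the smallest p in each list, the diabetes candidates, those most dependent on diet and those most variable among NOD libraries, with a mean of at least 16 count equivalents. Gm4956, ENSMUSG00000083840, ENSMUSG00000089637, Mrap2, neighbours of named genes and a few list members were named after their values were seen. Alternatives were the pseudocount, filter, scaling, variance model, lane, strains compared, diet and left-out libraries. Promoters come from RefSeq. Diversity Outbred animals were not analysed here, and some named list members are not reported here.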

Additional observations from a re-analysis of the deposited data

Results flagged for a closer look

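In groups of 7 or 8 NOD libraries of 1 diet, the library at an end was set apart from the rest by Dixon's test at 17 of 338 groups tested (5.03%), where chance gives about 5%, or 1 in 20. Levels are log2(count equivalents + 1). On chow, animal 9000 was lowest for Obp2a (4.32, the others 5.64 to 6.56) and for Rps27 (listed at 0, the others 6.96 to 8.07), and highest for Spp1 (10.6, the others 8.37 to 9.42). Animal 8234 was highest for Nmrk1 (5.33, the others 4.6 to 4.93) and lowest for Ptk6 (3.21, the others 4.64 to 5.52). Animal 8249 was highest for Tuft1 (8.87, the others 7.58 to 8.06). Animal 7226 was lowest for Hamp (11.3, the others 12.4 to 13.1) and had the only value above 0 for H2-Ea-ps (1.01). Animal 7211 was lowest for Vav3 (2.73, the others 3.57 to 4.11), and animal 8985 had the only Pnp2 value above 0 (2.49).

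On high fat, animal 8970 was highest for Ighm (9.57, the others 7.80 to 8.30), animal 7181 for Lyz2 (8.39, the others 7.38 to 7.74) and animal 8219 for Baat (11.7, the others 10.9 to 11.2). Animal 10146 was lowest for Cyp2c29 (12.9, the others 13.4 to 13.8) and Nnt (9.51, the others 9.67 to 9.77). Animal 8204 was lowest for Iigp1 (11.4, the others 11.6 to 11.8) and animal 8955 for Ifih1 (7.27, the others 7.72 to 7.93).

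The difference of NOD from the other strains, high fat minus chow, passed the interaction test of limma at 7 genes (adjusted p below 0.05). It was 2.15 for Mrap2, 1.44 for Rab27a, 0.904 for Celf2, 0.881 for Bhlhe40 and 0.868 for Psg29, and -1.24 for Ccl9 and -0.505 for Pglyrp2. The cause was not tested.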

How the results depend on the processing

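The clock covariate and the removal of single NOD libraries were chosen after seeing the data. The count of genes differing between NOD and the mean of 7 was 6427 and lay between 4987 (chow only) and 7717 (wild-derived strains) under the other settings, except 4080 on high fat only and 396 for a difference of over 2-fold by limma's treat. Without 1 NOD library it ran from 6129 to 6399. Genes beyond all 7 numbered 398 to 534. Genes whose difference depends on diet numbered 7, against 25 with no filter, 2 with all 128 libraries as labelled, 12 with the clock covariate, and 4 (without animal 7196 or 9000) to 16 (without 8727) when 1 NOD library was left out, with 11 without 8985. Some named genes changed direction. Against the 4 classical strains these were Ugt3a2 (-0.387), H2-D1 (-0.0725), H2-Eb1 (-1.33), Clec16a (0.0606), Fcgr1 (-0.174), Acadl (-0.146), Cd93 (-0.00251), Marco (-0.348), Abcc3 (-0.169) and Bhlhe40 (-0.068), and against the 3 wild-derived strains Cd274 (0.108), Ptpn22 (0.193) and Cyp4a14 (1.37). On chow only H2-Eb1 (-0.0951), Cd93 (-0.0109) and Bhlhe40 (-0.396) turned, on high fat only Ptpn2 (0.0445), and with all 128 libraries Cd93 (-0.0588). With the clock covariate Nr1d1 (0.884), Cry1 (-0.0353) and Cd93 (-0.209) turned, and Dbp, itself part of the covariate, came to 0.26 by construction. Without single NOD libraries Ptpn2 ran from -0.127 to 0.0297, Cd93 from -0.0377 to 0.0756 and Bhlhe40 from -0.00894 to 0.0975, none of them called. Ciita lost its call without animal 7196 (-0.553). Apart from changed comparisons and fewer samples, the cause was not tested. No paired analysis was possible because each replicate number is an animal of its own. Genes near 10 count equivalents are limited by depth.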
